A study of Mus musculus with 4 samples.

Results

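Conventional B cells of tumour ascites were taken as the ascites cells that carried B cell transcripts and few C1q transcripts. They lacked the T cell genes Cd3d and Cd3e and the B-1 cell genes Bhlhe41 and Zbtb32. Members were selected on measured UMIs (unique molecular identifiers, counted transcripts), so the levels of the gate genes are a description. A member had at least 3 UMIs of Cd79a, Cd79b and Ms4a1 together, 0 UMIs of Cd3d and Cd3e, fewer than 30 UMIs of C1qa, C1qb and C1qc per 10000, and 0 UMIs of Bhlhe41 and Zbtb32. The gate held 971 of the 6419 ascites cells that were assigned to a mouse (15.1%), and the whole series held 13160 assigned cells. The members had a median of 10 UMIs of the 3 B cell genes. Exactly 3 were counted in 25 members, and 51 cells with 2 lay just outside.

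The study took B6 mice that carried BeCon tumours, named in the series title as ovarian cancer, and compared treatment with YKL-05-099 (treated) with its vehicle. The compound YKL-05-099 blocks salt-inducible kinases (SIKs). Live CD45-positive, MHC class I-positive cells were sorted, marked with 1 hashtag antibody per mouse and tissue, and measured by 10x Genomics 3' single-cell RNA sequencing. The ascites library pooled 4 treated and 4 vehicle mice, and a separate library pooled spleen and blood of 3 treated mice (2 to 4) and 3 vehicle mice (1 to 3). All mice shared the strain and the tumour. Dose, duration, age and sex are not given in the sources used here.

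Conventional B cells recirculate between blood, spleen, lymph nodes and the serous cavities, and carry IgM and IgD as their antigen receptor. Their state is held by transcription factors such as Pax5, Ebf1, Pou2f2 and Spib, and receptor signals are set by kinases such as Syk and by inhibitory coreceptors such as Cd22. Salt-inducible kinases phosphorylate the CRTC coactivators of CREB and keep them in the cytoplasm, so that CREB target genes are a readout of kinase activity in many cell types. The kinases also act on class IIa histone deacetylases.

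The members were B cells by genes that the gate did not use. Ebf1, a transcription factor that specifies the lineage, had 1225 to 1297 CPM (summed counts per 1000000 UMIs of the mouse) in treated mice and 1448 to 1523 CPM in vehicle mice, against 4.15 to 17.1 CPM in the other ascites cells of all mice. Pax5, the factor that commits cells to it, had 258 to 356 CPM in treated mice and 371 to 414 CPM in vehicle mice, against 1.23 to 4.82 CPM in the other cells. Ighd had 459 to 497 CPM in treated mice and 621 to 679 CPM in vehicle mice, against 2.88 to 10.3 CPM. All 8 mice therefore had these transcripts well above the rest of their ascites. Lambda light chains were the minor class, with more lambda than kappa UMIs in 7.44% of treated and 7.42% of vehicle B cells.

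RNA of the abundant ascites macrophages was present in these cells. At least 1 C1q UMI was found in 87.3% of treated and 84.0% of vehicle B cells. The 9 macrophage markers include C1qa, C1qb and C1qc, which the gate holds low. They summed to 3156 to 4316 CPM in treated B cells and 3596 to 4625 CPM in vehicle B cells. In the other ascites cells they summed to 8455 to 14891 CPM in treated and 23552 to 30598 CPM in vehicle mice. Of the 6 macrophage markers outside the gate, 0 passed the test between the arms, with a median log2 ratio of -0.09. T cell markers include Cd3d and Cd3e, which the gate holds at 0. They summed to 16.6 to 23.5 CPM in treated B cells and 10.6 to 20.04 CPM in vehicle B cells. The plasma cell markers summed to 205 to 313 CPM in treated mice and 285 to 2082 CPM in vehicle mice. S1pr3 of the marginal zone list, Ncr1 of NK cells and Krt8, Krt18 and Msln of tumour epithelium were at 0 in every member. Other genes of these lists were found. Marginal zone genes summed to 144.1 to 215.9 CPM in treated and 165.4 to 180.3 CPM in vehicle B cells. NK cell markers summed to 5.22 to 39.37 and 7.116 to 20.04 CPM. That was below the 101.2 to 172.6 and 94.73 to 155.6 CPM of the other ascites cells. Tumour epithelium markers summed to 5.536 to 10.44 and 8.803 to 17.78 CPM. That was above the 1.125 to 1.707 and 1.337 to 3.502 CPM of the other ascites cells. The transcript libraries of ascites and of spleen and blood shared 52 barcodes, of which 10 were assigned in both and 5 belonged to members.

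The first question was how many conventional B cells the ascites held. They made up 12.8%, 5.85%, 12.2% and 17.7% of the assigned cells in treated mice 1 to 4, against 15.1%, 14.2%, 13.9% and 24.0% in vehicle mice 1 to 4. The arms overlapped, and the means of 12.1% ± 4.85 and 16.8% ± 4.83 (SD, n = 4 each) did not differ beyond the spread between mice (exact two-sided permutation p = 0.286). Counted among B, T and NK cells alone they were 33.1% in treated and 55.0% in vehicle mice, and the arms did not overlap (exact permutation p = 0.0286, the smallest that 4 against 4 mice allow). Without treated mouse 2 the difference in the share of all cells was -2.59 percentage points, and without vehicle mouse 4 it was -2.28, against -4.68 with all mice. At no more than 5% mitochondrial UMIs the shares were 5.85% and 10.3% (exact permutation p = 0.0286).

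Cells that passed the rest of the gate but had Bhlhe41 or Zbtb32, factors of B-1 cells, were fewer in treated ascites. They numbered 9, 5, 5 and 7 in treated mice, against 21, 34, 26 and 98 in vehicle mice. Their share of the assigned cells was 0.917% ± 0.289 in treated and 4.69% ± 2.91 in vehicle mice (SD, n = 4 each, exact permutation p = 0.0286), with no overlap. They were 7.71% of gated B cells in treated mice and 20.6% in vehicle mice, so the gate removed a larger part of the vehicle B cells than of the treated ones. In the other library the gate gave 44.1% of treated and 30.4% of vehicle spleen cells, and 53.0% and 47.0% of blood cells. Those arms did not overlap, and 3 against 3 mice cannot give an exact permutation p under 0.1.

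**Figure D1:**
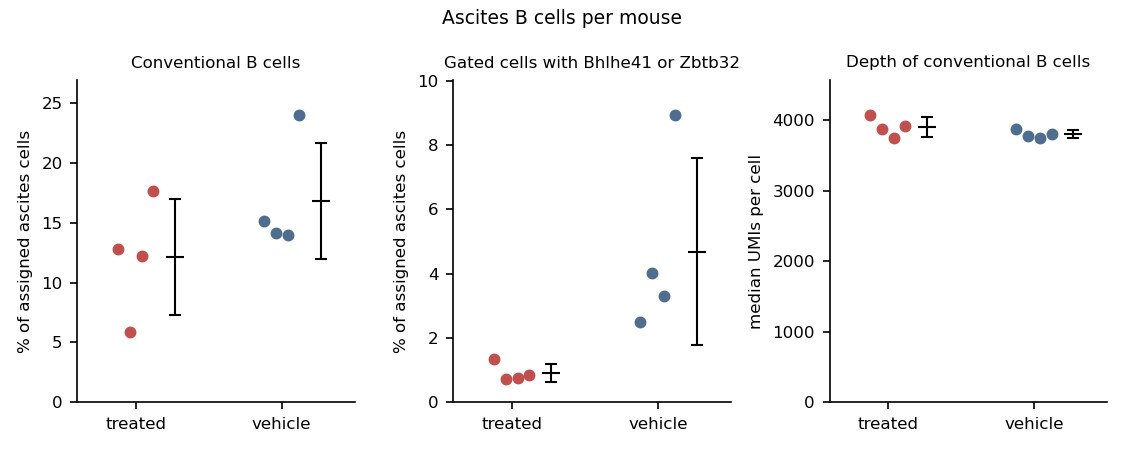
Share of conventional B cells and of gated cells with Bhlhe41 or Zbtb32 among assigned ascites cells (percent), and median UMIs per conventional B cell, with 1 point per mouse and the mean ± SD (n = 4 per arm) beside the points. The B cell share overlaps between treated (5.85% to 17.7%) and vehicle mice (13.9% to 24.0%), while the share with Bhlhe41 or Zbtb32 does not.

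The cells of both arms were measured to a like depth. The median UMIs per B cell averaged 3901 ± 137 in treated and 3801 ± 57.0 in vehicle mice (SD, n = 4 each, exact permutation p = 0.257), and the median number of genes 1541.5 and 1508. The summed counts per mouse were 180636 to 574710 UMIs in treated and 449194 to 1124237 UMIs in vehicle mice. The mitochondrial share of UMIs was slightly higher in treated B cells, at 5.73% ± 0.181 against 5.32% ± 0.167 in vehicle B cells, without overlap (SD, n = 4 each, exact permutation p = 0.0286).

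Expression was compared on counts summed per mouse, with the mouse as the replicate. Of 5530 genes tested, 125 were higher in treated B cells (2.26%) and 140 were lower (2.53%), 265 in either direction (4.79%), at an adjusted p under 0.05. The CPM of the arms did not overlap for 526 genes (9.51%). The count of called genes was 173 of 6063 tested without treated mouse 3, and 140 of 5530 with the DESeq2 Wald test. With every cell thinned to 2000 UMIs it was 128 of 3131, since fewer genes passed the filter. With cells of no more than 5% mitochondrial UMIs, which left 332 cells and 3 of the treated mice, it was 34 of 2990. Since the mitochondrial share differed between the arms, this count stands beside every list below.

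Among the 68 called genes that the naming rule took, 40 were no longer called with that mitochondrial limit, and 0 changed sign in any of 22 settings. The limit tested 2990 genes in place of 5530, and a gene not tested there counts as neither lost nor kept. The 20 that stayed called in each setting that tested them were Crem, Stat4, Pde4d, Per1, Bcl11a, Irf8, Ptpn6, Ciita, Tnfrsf13c, Btla, Vpreb3, Zfp36l2, Hsp90ab1, Il7r, Bcl2a1d, Bend5, Brpf3, Chst3, Fut8 and Lax1. Of these, Brpf3 was tested in 11 of the settings, Pde4d in 13, Il7r, Bcl2a1d and Bend5 in 16, and Fut8 and Lax1 in 19.

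**Figure D2:**
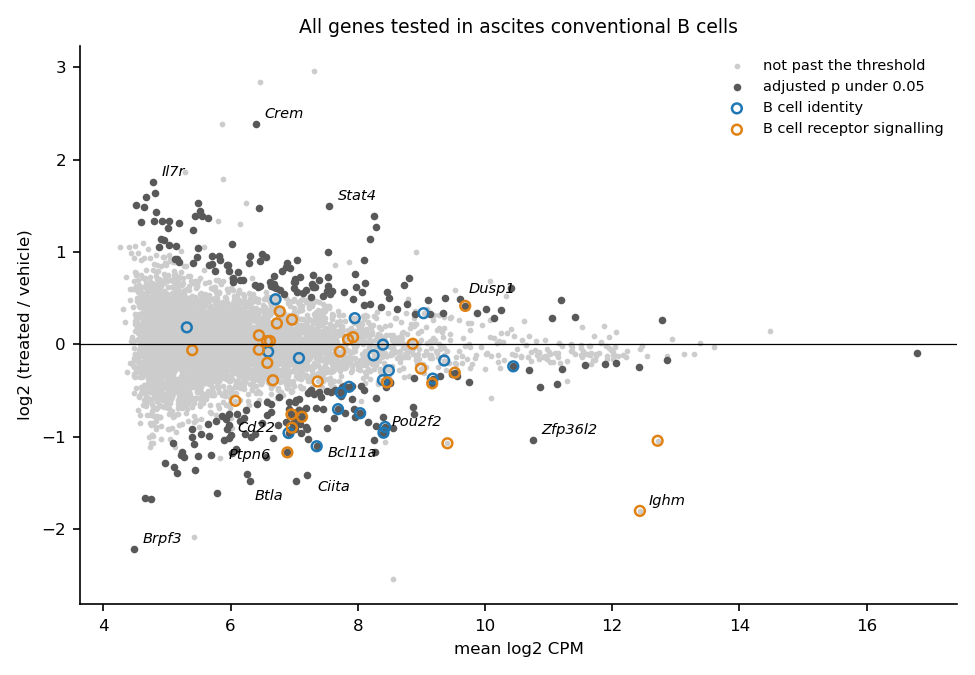
Change of each of the 5530 genes tested in ascites conventional B cells (log2 of treated over vehicle) against mean expression (log2 CPM). Dark points passed the adjusted threshold, and open circles mark the B cell identity and receptor signalling lists, whose called members lie below 0 apart from Syk.

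Treated B cells had more transcript of some CREB and CRTC target genes and less of others. Of 20 listed targets 18 were tested, of which 5 rose (Crem, Pde4b, Pde4d, Dusp1 and Got1) and 5 fell (Nr4a1, Per1, Sik1, Cd83 and Bcl2). The median log2 ratio was 0.04, against -0.00 over all genes tested. The largest rise was that of Crem, a CREB family member whose gene is itself induced through CREB.

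Crem had 115, 82.0, 190 and 191 CPM in treated mice 1 to 4, against 24.1, 25.6, 16.2 and 40.5 CPM in vehicle mice 1 to 4. Every treated mouse was above every vehicle mouse, and the log2 ratio was 2.38 ± 0.26 (SE, adjusted p = 1.35e-06). In the other ascites cells Crem had 133 to 166 CPM in treated and 11.2 to 24.5 CPM in vehicle mice. Pde4d, a phosphodiesterase that degrades cyclic AMP, had 28.0, 23.4, 35.7 and 34.0 CPM in treated mice, against 7.42, 9.86, 6.95 and 15.1 CPM in vehicle mice. The arms were apart at these low levels (log2 ratio 1.51 ± 0.36, adjusted p = 0.00562). Dusp1, a phosphatase of MAP kinases, had 861, 990.1, 937 and 894 CPM in treated mice, against 713, 604, 583 and 705 CPM in vehicle mice. All treated mice were higher (0.49 ± 0.09, adjusted p = 0.000294), and the call was lost in cells with 0 UMIs of 5 other B-1 transcripts (log2 ratio 0.34, adjusted p = 0.0967). Got1, a cytosolic aminotransferase, had 115, 158, 83.3 and 91.2 CPM in treated mice, against 57.5, 63.1, 41.7 and 53.7 CPM in vehicle mice, again with no overlap (0.96 ± 0.20, adjusted p = 0.00144).

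Per1, a clock gene with CREB-responsive transcription, went down. It had 122, 176, 155 and 114 CPM in treated mice, against 262, 241, 234 and 218 CPM in vehicle mice, with no overlap (-0.80 ± 0.14, adjusted p = 0.000191). Nr4a1, a nuclear receptor induced by antigen receptor signals and by cyclic AMP, had 209, 193, 164 and 175 CPM in treated mice, against 366, 247, 229 and 266 CPM in vehicle mice. Vehicle mouse 1 was the highest. The call was lost without it (-0.44), with the Bhlhe41 or Zbtb32 cells put back (-0.39) and at the mitochondrial limit (-0.37), against -0.59 ± 0.14 and adjusted p = 0.00601 with all mice and cells. Cd83, a surface protein of activated B cells, had 199, 152, 131 and 197 CPM in treated mice, against 316, 290, 289 and 304 CPM in vehicle mice. The arms lay far apart relative to their spread (-0.79 ± 0.13, adjusted p = 7.58e-05). Il10, a cytokine that regulatory B cells and macrophages make, had 23.4 to 37.6 CPM in treated and 20.4 to 43.4 CPM in vehicle mice, with full overlap (0.06 ± 0.28, adjusted p = 0.973).

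Transcripts of the kinases and coactivators themselves mostly did not pass the test. Of 17 tested genes of the SIK, CRTC and class IIa HDAC axis, 0 rose and 1, Sik1, fell. Sik1 is both a member of the axis and a CREB target. It had 247, 240.2, 196 and 207 CPM in treated mice, against 304, 329, 345 and 276 CPM in vehicle mice. The arms did not overlap (-0.49 ± 0.13, adjusted p = 0.0117), but the call was lost without treated mouse 3, treated mouse 4 or vehicle mouse 3, without macrophage-rich cells and at the mitochondrial limit, with log2 ratios of -0.37 to -0.45. Sik2 (0.52 ± 0.32) and Sik3 (0.10 ± 0.23) did not pass the test, nor did the coactivators Crtc2 (-0.34 ± 0.23) and Crtc3 (0.19 ± 0.21) or Creb1 (0.13 ± 0.17).

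Promoter sequence is shown for a rising and for 2 falling targets, because the cyclic AMP response element is the site that CREB binds. The windows run from 250 bases before to 50 bases after the RefSeq gene start (GRCm38.p6), and the copy nearest to the start is shown with its flanks. Capitals mark the full element TGACGTCA or its core TGACG, or the reverse complement of the core, which lies inside the full element too. The first line is Dusp1 (chr17:26508568-26508655, minus strand), the second Per1 (chr11:69099980-69100064, plus strand) and the third Nr4a1 (chr15:101266766-101266850, plus strand).
Dusp1: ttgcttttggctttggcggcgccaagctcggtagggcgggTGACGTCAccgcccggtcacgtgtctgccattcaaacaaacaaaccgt
Per1: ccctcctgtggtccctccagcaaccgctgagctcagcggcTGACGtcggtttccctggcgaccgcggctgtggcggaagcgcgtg
Nr4a1: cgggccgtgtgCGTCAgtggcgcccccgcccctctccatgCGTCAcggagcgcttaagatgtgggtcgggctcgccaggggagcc
The Dusp1 element begins at -143 relative to the start, the Per1 core at -132, and the nearest of the 4 cores of Nr4a1 at -40. On either strand the full element occurred in 1.79% of all 32851 windows and in 3.94% of the 4439 tested genes with a window. Among called genes it was found in 4 of 100 higher and 2 of 106 lower genes. The core was found in 40.6% of tested, 40% of higher and 34.9% of lower genes. Neither called group held the core more often than the genes tested.

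Several B cell identity genes fell in treated ascites. Of 21 tested members 0 rose and 10 fell, 17 had a log2 ratio below 0, and the median was -0.28 against -0.00 over all genes. The 10 were Bcl11a, Spib, Pou2f2, Irf8, Cd24a, Ikzf1, Ikzf3, Foxo1, Cd37 and Ebf1. The 21 members include factors that pattern the lineage and surface proteins that mark it.

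Pou2f2, which encodes the octamer-binding factor Oct2, had 227, 211, 256 and 193 CPM in treated mice, against 419, 438, 512 and 362 CPM in vehicle mice. Each treated mouse was below the lowest vehicle mouse (-0.96 ± 0.13, adjusted p = 7.77e-07), and at no more than 5% mitochondrial UMIs the log2 ratio was -0.86 (adjusted p = 0.208). Spib, an Ets factor that acts in receptor signalling, had 73.9, 76.2, 83.3 and 69.8 CPM in treated mice, against 128, 142, 150.5 and 160.1 CPM in vehicle mice. Its values were tight within each arm (-0.96 ± 0.17, adjusted p = 0.000118), with a log2 ratio of -0.90 under the same limit (adjusted p = 0.201). Bcl11a, needed for early B cell development, had 79.0, 123, 89.2 and 104 CPM in treated mice, against 230.1, 193, 197 and 207 CPM in vehicle mice, with no overlap (-1.10 ± 0.15, adjusted p = 2.04e-06). Irf8, an interferon regulatory factor with roles in B cell lineage and marginal zone choice, had 234, 152, 241 and 267 CPM in treated mice, against 436, 400.5, 482 and 413 CPM in vehicle mice. Treated mouse 2 was the lowest, and all 4 treated mice were below all vehicle mice (-0.90 ± 0.13, adjusted p = 2.16e-06). In the other ascites cells Pou2f2 was lower in treated mice too, at 31.3 to 39.9 against 58.9 to 80.6 CPM. Irf8 overlapped there, at 251 to 304 CPM in treated and 229 to 356 CPM in vehicle mice.

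The most central factors moved less. Ebf1 had 1225, 1271, 1288 and 1297 CPM in treated mice, against 1448, 1509, 1523 and 1515 CPM in vehicle mice, a small difference with no overlap (-0.24 ± 0.07, adjusted p = 0.0394). That call was lost under 12 of the 22 settings, among them each of the 4 fits without 1 treated mouse. Pax5 had 306, 258, 327 and 356 CPM in treated mice, against 380.5, 371, 414 and 381 CPM in vehicle mice. Its arms did not overlap either, and it did not pass the test (-0.28 ± 0.12, adjusted p = 0.192). Ms4a1, which encodes CD20 and belongs to the gate, had 329, 439, 342 and 286 CPM in treated mice, against 583, 625, 563 and 525 CPM in vehicle mice, given without a test.

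Vpreb3 and Cd24a, of the transitional B cell markers, both fell, and Cd93, the third, was too low to be tested. Vpreb3, a light chain-associated protein of immature B cells, had 217, 169.9, 187 and 152 CPM in treated mice, against 444, 396.5, 489 and 312 CPM in vehicle mice, with no overlap (-1.16 ± 0.14, adjusted p = 1.66e-07). The other ascites cells had at most 2.98 CPM of it. Its promoter is shown because it was the named gene whose window held the octamer that Oct2 binds, in capitals (GRCm38.p6, chr10:75948215-75948302, plus strand).
Vpreb3: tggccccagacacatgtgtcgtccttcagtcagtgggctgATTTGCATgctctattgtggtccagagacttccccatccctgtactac
The octamer ATTTGCAT begins at -45. On either strand it occurred in 1.74% of all windows, 1.67% of tested genes, 2 of 100 higher genes and 3 of 106 lower genes.

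**Figure D3:**
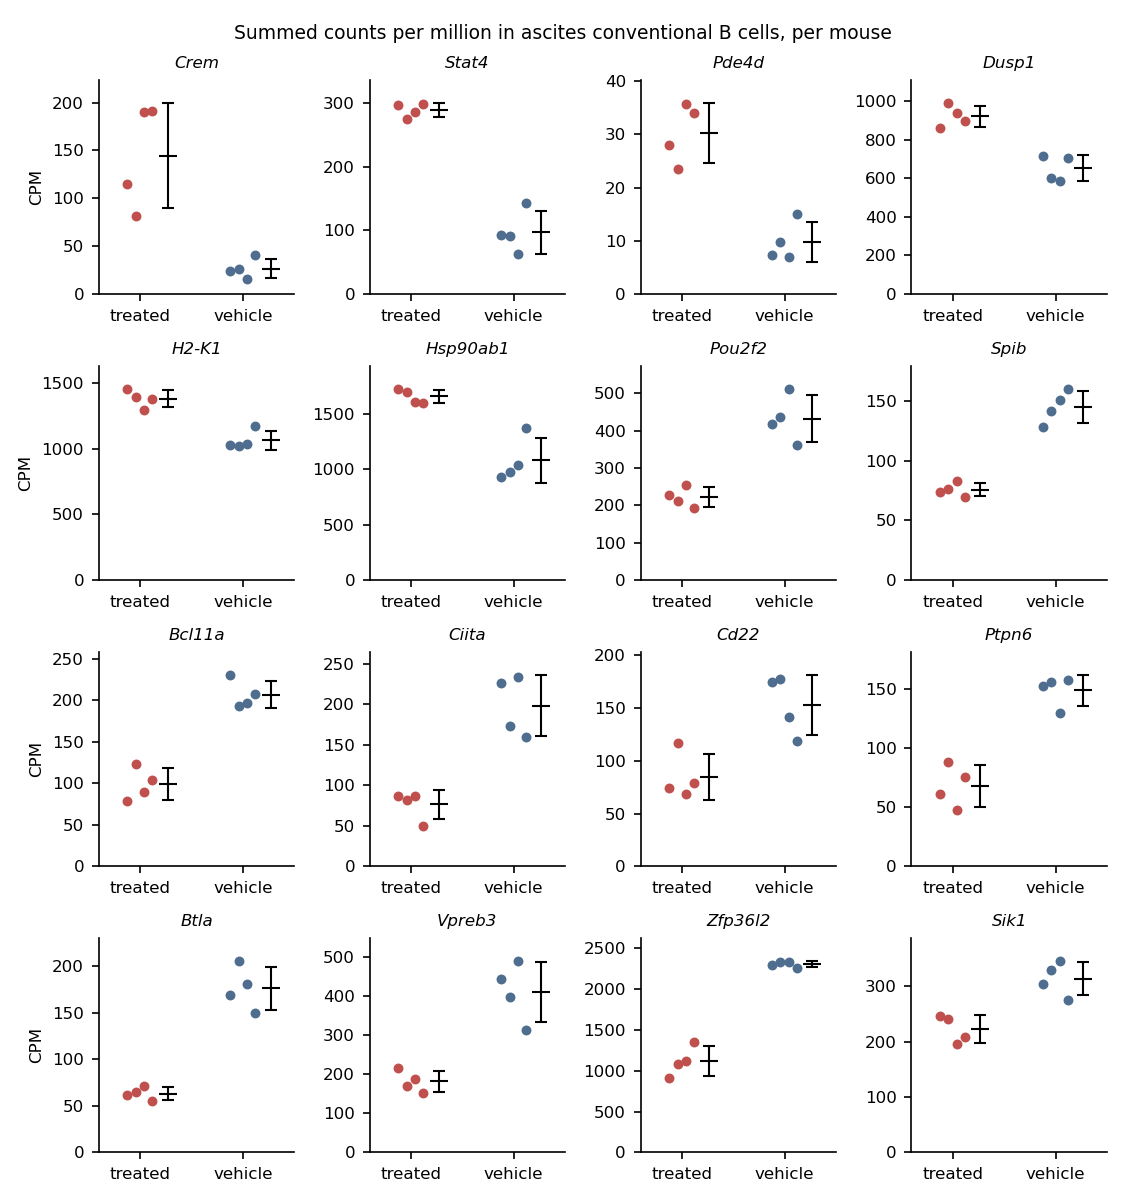
CPM of 16 genes in ascites conventional B cells, with 1 point per mouse (treated left, vehicle right) and the mean ± SD (n = 4 per arm). In each panel the points of treated and vehicle mice do not overlap. Crem has 82.0 to 191 CPM in treated and 16.2 to 40.5 CPM in vehicle mice, and Zfp36l2 has 907 to 1356 CPM in treated and 2258 to 2336 CPM in vehicle mice.

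Genes of B cell receptor signalling fell more often than they rose. Of 28 tested members 1 rose, Syk, and 7 fell, with a median log2 ratio of -0.23. The 7 were Ptpn6, Cd22, Cd72, Pik3ap1, Ighd, Inpp5d and Ptprc. Of these, Cd22 and Cd72 are inhibitory coreceptors, and Ptpn6 (SHP-1) and Inpp5d (SHIP1) are phosphatases that damp the signal.

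Ptpn6 had 61.1, 87.9, 47.6 and 75.1 CPM in treated mice, against 152, 156, 129.7 and 157 CPM in vehicle mice. Treated mice had about the same range among themselves and stayed below all vehicle mice (-1.17 ± 0.18, adjusted p = 1.08e-05). The other ascites cells had 91.7 to 119 CPM of Ptpn6 in treated and 150 to 170 CPM in vehicle mice. Cd22 had 73.9, 117, 68.4 and 78.7 CPM in treated mice, against 174.5, 178, 141 and 119 CPM in vehicle mice. Treated mouse 2 and vehicle mouse 4 nearly met (-0.90 ± 0.18, adjusted p = 0.000733). Cd72 had 94.3, 117, 110.1 and 76.9 CPM in treated mice, against 174.5, 169.7, 176 and 146 CPM in vehicle mice, with no overlap (-0.79 ± 0.16, adjusted p = 0.00115). Cd22 and Cd72 were not called at no more than 5% mitochondrial UMIs or in cells with 0 UMIs of 5 other B-1 transcripts, with log2 ratios of -1.21 and -0.54 for Cd22 (adjusted p = 0.0764 and 0.242) and of -0.63 and -0.65 for Cd72 (adjusted p = 0.365 and 0.0721). Syk, the kinase that starts the signal, had 930, 890.5, 967 and 986 CPM in treated mice, against 655, 671, 699 and 802 CPM in vehicle mice. All treated mice were higher (0.42 ± 0.09, adjusted p = 0.0015), with a log2 ratio of 0.39 at the mitochondrial limit (adjusted p = 0.201). The kinases Btk (0.04) and Blk (0.10) and the adaptor Blnk (0.08) had log2 ratios near 0 and did not pass the test.

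The receptor itself was measured through its constant regions. Ighd had 459, 486, 497 and 494 CPM in treated mice, against 644, 679, 620.5 and 649.7 CPM in vehicle mice, with no overlap (-0.42 ± 0.10, adjusted p = 0.00394). The call was lost with the Bhlhe41 or Zbtb32 cells put back and at no more than 5% mitochondrial UMIs (log2 ratios -0.08 and -0.61, adjusted p = 0.764 and 0.106). Ighm had 2397, 2361, 2499 and 2533 CPM in treated mice, against 3151, 20683, 3526 and 6873 CPM in vehicle mice. Vehicle mouse 2 stood far above the rest, and the gene did not pass the test (-1.80 ± 0.67, adjusted p = 0.27). A setting that was not planned took cells with fewer than 10 UMIs of Jchain, a plasma cell transcript. It left out 2 cells of vehicle mouse 2 and 1 of vehicle mouse 4, and no treated cells. There Ighm fell by 0.64 on the log2 scale (adjusted p = 0.00328). Over all 22 settings Ighm passed the threshold in 4 and did not pass in 18. The light chains Igkc (-1.04 ± 0.58) and Iglc2 (-1.07 ± 0.43) were also highest in vehicle mouse 2, at 19040 and 1677 CPM, and did not pass.

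Some class II antigen presentation genes fell and some class I genes rose. Of 13 tested class II genes 0 rose and 2 fell, 12 had a log2 ratio below 0, and the median was -0.21. Of 12 class I genes 4 rose and 0 fell, with a median of 0.15.

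Ciita, the transactivator that class II transcription depends on, had 86.6, 82.0, 86.3 and 50.1 CPM in treated mice, against 226, 174, 234 and 159 CPM in vehicle mice. Treated mouse 4 was the lowest of all, and the arms were apart (-1.41 ± 0.18, adjusted p = 5.53e-07). H2-Eb2, a class II beta chain, had 99.4, 64.4, 101 and 82.3 CPM in treated mice, against 182, 162, 181 and 113 CPM in vehicle mice (-0.80 ± 0.18, adjusted p = 0.00271), and was not called at the mitochondrial limit (-0.47, adjusted p = 0.516) or after thinning (-0.63, adjusted p = 0.107). In the other ascites cells Ciita had 23.8 to 38.45 CPM in treated and 52.5 to 72.8 CPM in vehicle mice. H2-Eb2 was higher in treated mice there, at 19.1 to 28.8 against 10.5 to 15.0 CPM. The abundant class II transcripts did not pass the test in B cells. H2-Aa had a log2 ratio of -0.21 ± 0.11 and the invariant chain Cd74 one of -0.11 ± 0.05. The class I heavy chain H2-K1 had 1452, 1388, 1294 and 1379 CPM in treated mice, against 1026, 1018, 1033 and 1173 CPM in vehicle mice, with no overlap (0.37 ± 0.08, adjusted p = 0.00115). B2m, the class I light chain, rose by a like small step (0.28 ± 0.07, adjusted p = 0.00489), as did H2-Q7 (0.57 ± 0.14, adjusted p = 0.0108) and H2-D1 (0.29 ± 0.08, adjusted p = 0.0222). None of these 4 was called at no more than 5% mitochondrial UMIs, where their log2 ratios were 0.41 for H2-K1, 0.35 for B2m, 0.62 for H2-Q7 and 0.32 for H2-D1. In the other ascites cells H2-K1 had 1259 to 1412 CPM in treated and 1067 to 1203 CPM in vehicle mice. B2m had 2588 to 3271 and 2262 to 2485 CPM there, and H2-Q7 177 to 253 and 71.3 to 137 CPM. H2-D1 overlapped there, at 1411 to 1647 and 1296 to 1553 CPM. The part of the other ascites cells in the B cell values of these 4 genes was not tested.

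Receptors of the survival factor BAFF were lower. Tnfrsf13c, the BAFF receptor, had 117, 123, 119 and 119.8 CPM in treated mice, against 236, 221, 245 and 201 CPM in vehicle mice. The treated values were nearly equal and all below the vehicle values (-0.90 ± 0.14, adjusted p = 1.98e-05). Tnfrsf13b, which encodes TACI, fell as well (-0.88 ± 0.23, adjusted p = 0.0139), a call lost under 5 settings. In the same list of 13 tested genes, 3 rose. These were Tnfrsf1b, TNF receptor 2 (1.33 ± 0.33, adjusted p = 0.00833), Nfkb2, a subunit of the alternative NF-kB pathway (0.69 ± 0.14, adjusted p = 0.00124), and Rel (0.33 ± 0.10, adjusted p = 0.037). The median of the list was 0.26. Tnfrsf1b was low in B cells, at 29.3 to 45.9 CPM in treated and 7.89 to 22.6 CPM in vehicle mice. The other ascites cells had 70.3 to 81.9 CPM of it in treated and 61.3 to 72.7 CPM in vehicle mice, and without the 25% of B cells richest in macrophage transcripts the log2 ratio was 1.34 ± 0.43 (adjusted p = 0.072).

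Among STAT factors and cytokine receptors 5 of 19 tested genes rose and 0 fell, with a median of 0.44. Stat4, a STAT best known downstream of interleukin-12 in T and NK cells, had 298, 275, 286 and 299 CPM in treated mice, against 92.8, 90.8, 62.5 and 143 CPM in vehicle mice. The treated mice were close together and all above the vehicle mice (1.5 ± 0.16, adjusted p = 6.81e-08). The other ascites cells had 76.2 to 98.4 CPM of Stat4 in treated and 19.4 to 35.0 CPM in vehicle mice, below the B cells of the same arm. Stat6, which relays interleukin-4, rose too (0.88 ± 0.21, adjusted p = 0.00509), without treated mouse 4 not past the threshold. Il10ra (0.72 ± 0.21, adjusted p = 0.0293) and Ifngr1 (0.65 ± 0.18, adjusted p = 0.0207) passed the test and were each lost under 10 or more settings.

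Of 26 type I interferon response genes only 11 were detected well enough to be tested. Of these 3 rose, among them Ifi213 and Trim25, 0 fell, and the median was 0.30. Ifi213, an interferon-induced PYHIN protein, had 43.3, 46.9, 38.7 and 41.1 CPM in treated mice, against 16.7, 7.89, 20.8 and 18.8 CPM in vehicle mice (1.34 ± 0.31, adjusted p = 0.00394). The arms were apart, and without the 25% of cells richest in macrophage transcripts the log2 ratio was 0.89 ± 0.38 (adjusted p = 0.224). The other ascites cells had 9.15 to 20.1 CPM of it in treated mice, below the treated B cells. In vehicle mice they had 4.44 to 8.24 CPM, a range that holds the 7.89 CPM of the B cells of vehicle mouse 2. Trim25, a ubiquitin ligase of RNA sensing, had 163, 193, 193 and 165 CPM in treated mice, against 111, 120.3, 102 and 127 CPM in vehicle mice (0.59 ± 0.15, adjusted p = 0.00872), and the call was lost without treated mouse 3 (0.54), at the mitochondrial limit (0.31) and after thinning (0.14, adjusted p = 0.852).

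Some folding chaperones rose in treated B cells. Of 15 tested genes 5 rose (Dnaja1, Hspd1, Hspe1, Hsp90ab1 and Hsp90aa1), 0 fell, and the median was 0.52. Hsp90ab1, a constitutive cytosolic chaperone, had 1722, 1693, 1609 and 1597 CPM in treated mice, against 932, 977, 1037 and 1373 CPM in vehicle mice. Vehicle mouse 4 was nearest to the treated mice and still below them (0.61 ± 0.09, adjusted p = 5.89e-05). Dnaja1, a co-chaperone, had 288, 305, 372 and 309.5 CPM in treated mice, against 162, 193, 171 and 215 CPM in vehicle mice (0.76 ± 0.13, adjusted p = 6.74e-05), with a log2 ratio of 0.75 at the mitochondrial limit (adjusted p = 0.0799). The stress-induced Hspa1a (1.79 ± 0.98) and Hspa1b (2.84 ± 1.31) did not pass the test, and treated mouse 2 had 392.5 and 656 CPM of them, above all other mice. The chaperones of the endoplasmic reticulum Hspa5 (-0.22), Hsp90b1 (-0.14), Pdia4 (-0.30), Pdia6 (-0.14) and Calr (-0.13) were below 0 and did not pass.

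Genes linked to lymphocyte quiescence and glucocorticoid response included the gene with the smallest adjusted p of all 5530 tested, Zfp36l2. Of 16 tested genes 1 rose, Sgk1, and 4 fell (Zfp36l2, Btg1, Per1 and Foxo1), with a median of -0.17. Zfp36l2, an RNA-binding protein that promotes mRNA decay and restrains the cell cycle, had 907, 1090, 1116 and 1356 CPM in treated mice, against 2294, 2334, 2336 and 2258 CPM in vehicle mice. Vehicle mice were nearly equal, and each treated mouse lay far below them (-1.04 ± 0.08, adjusted p = 7.5e-11). The other ascites cells had 380 to 595 CPM of Zfp36l2 in treated and 739 to 887 CPM in vehicle mice. Btg1, an antiproliferative factor, had 1554, 1623, 1479 and 1603 CPM in treated mice, against 2320, 2148, 2128 and 2016 CPM in vehicle mice, with no overlap (-0.46 ± 0.07, adjusted p = 6.81e-06), and a log2 ratio of -0.32 at the mitochondrial limit (adjusted p = 0.113). Btg1 overlapped in the other ascites cells, at 919 to 1127 CPM in treated and 720 to 1007 CPM in vehicle mice.

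Homing genes were split, with 2 of 19 higher and 2 lower. Klf3, a Kruppel-like repressor, rose (0.95 ± 0.18, adjusted p = 0.000353, lost under 1 setting), and so did Itga4, the alpha-4 integrin chain (0.40 ± 0.12, adjusted p = 0.0299, lost under 14 settings). S1pr1, the receptor that guides egress from lymphoid tissue, fell (-0.73 ± 0.17, adjusted p = 0.00457, lost under 3 settings), as did Cxcr4 (-0.45 ± 0.14, adjusted p = 0.0437, lost under 11 settings). Survival genes were split as well. Pim1 (0.48 ± 0.10, adjusted p = 0.00241, lost under 3 settings) and the pro-apoptotic Bcl2l11 (0.59 ± 0.18, adjusted p = 0.0437, lost under 11 settings) were higher. Bcl2 was lower (-0.71 ± 0.16, adjusted p = 0.00394, lost under 2 settings). Early activation genes had 1 of 24 higher, Bcl2a1d, and 3 lower, Cd83, Irf4 and Nr4a1. Of the regulatory B cell list 6 genes were tested and 1, Cd274 (PD-L1), fell (-1.01 ± 0.20, adjusted p = 0.000623, lost under 1 setting).

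**Figure D4:**
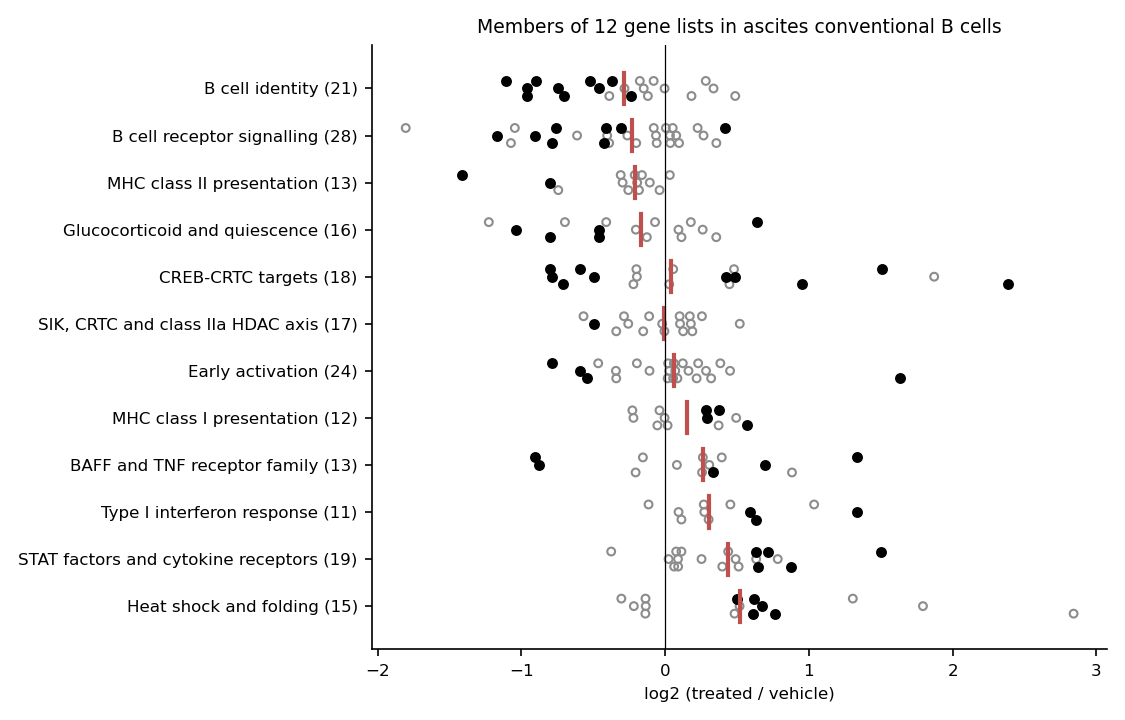
Log2 ratio of treated over vehicle for the tested members of 12 gene lists in ascites conventional B cells, with filled points past the adjusted threshold, open points not past it, and a bar at each list's median. The identity list (10 of 21 called, all below 0) and the receptor signalling list (7 of 28 called below 0) lie to the left, the heat shock list (5 of 15 above 0) and the STAT list (5 of 19 above 0) to the right.

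The largest changes with no overlap were also described without regard to a list. The 10 largest rises were Crem, Bcl2a1d, Il7r, Lef1, Gfod1, Pde4d, Stat4, Cul2, Itgb3 and Arhgap31. Il7r, the interleukin-7 receptor chain, had 40.8, 41.0, 29.8 and 50.1 CPM in treated mice, against 3.71, 15.8, 9.26 and 16.01 CPM in vehicle mice (1.76 ± 0.34, adjusted p = 0.000538). The other ascites cells, which include T cells, had 82.4 to 227 CPM of it in treated and 24.0 to 108 CPM in vehicle mice, and Lef1 had 21.8 to 149 CPM and 6.69 to 62.7 CPM there. Bcl2a1d had 141 to 205 CPM in the other ascites cells of treated and 57.3 to 75.2 CPM in those of vehicle mice. In B cells it had 30.4 to 56.5 CPM and 8.47 to 20.8 CPM. The part of the other ascites cells in the B cell values of Bcl2a1d, Il7r and Lef1 was not tested. Itgb3, the beta-3 integrin chain, had 115, 64.4, 131 and 179 CPM in treated B cells, against 44.5, 33.5, 62.5 and 49.9 CPM in vehicle B cells (1.47 ± 0.21, adjusted p = 1.39e-05). It was lower in the other ascites cells, at 8.42 to 19.9 CPM in treated and 1.75 to 9.52 CPM in vehicle mice.

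The 10 largest falls were Brpf3, Bend5, Hook1, Cd200, Btla, Sema4d, Ciita, Chst3, Fut8 and Lax1. Btla, an inhibitory receptor of lymphocytes, had 61.1, 64.4, 71.4 and 55.5 CPM in treated mice, against 169, 205, 181 and 149.7 CPM in vehicle mice. The arms were more than their own width apart (-1.48 ± 0.17, adjusted p = 6.81e-08). Cd200, the ligand of an inhibitory myeloid receptor, had 20.4, 35.2, 23.8 and 19.7 CPM in treated mice, against 66.8, 105, 74.1 and 48.0 CPM in vehicle mice (-1.61 ± 0.28, adjusted p = 0.000124), with a log2 ratio of -1.30 at the mitochondrial limit (adjusted p = 0.232). Chst3, a chondroitin sulfotransferase, had 38.2, 41.0, 41.7 and 30.4 CPM in treated mice, against 85.4, 86.8, 90.3 and 117 CPM in vehicle mice (-1.40 ± 0.22, adjusted p = 1.6e-05). It was at most 1.88 CPM in the other ascites cells. Lax1, an adaptor that limits antigen receptor signals, had 10.2, 11.7, 14.9 and 34.0 CPM in treated mice, against 52.0, 55.2, 74.1 and 39.6 CPM in vehicle mice (-1.36 ± 0.31, adjusted p = 0.00383).

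The make-up of the B cells was read as the share of cells with at least 1 UMI of a gene, after each cell was thinned to 2000 UMIs. This left 948 cells, since 8 treated and 15 vehicle cells had fewer. Ighd was found in 57.0% ± 4.59 of treated and 66.9% ± 0.714 of vehicle B cells (SD, n = 4 each), and in 75.3% and 79.9% without thinning. Macrophage-like cells, which should lack it, had a share of 0.830% (median 15206 UMIs before thinning, against 3840 in B cells). The arms were apart (exact permutation p = 0.0286), and the share did not pass the adjustment over 16 genes (adjusted 0.229). The exact permutation p of the unthinned shares was 0.2.

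Fcer2a, Cd69, Cr2, Mki67 and Cd93 overlapped between the arms. Fcer2a, the follicular marker CD23, was found in 25.7% ± 6.80 of treated and 17.3% ± 2.85 of vehicle B cells (exact permutation p = 0.0857), and Cd69 in 58.8% ± 3.78 and 50.1% ± 8.39 (exact permutation p = 0.171). Cr2, the complement receptor CD21, was found in 14.3% of treated and 15.5% of vehicle B cells. Mki67, a marker of dividing cells, was found in 1.52% and 0.903%, below the 7.47% of macrophage-like cells. Cd93 was at 3.64% and 3.46%, also below its 19.9% in macrophage-like cells. Switched isotypes were rare. Ighg1 was seen in 0 of 343 thinned treated cells and 0 of 605 vehicle cells, which allows shares with a UMI of up to 0.875% and 0.496% by counting error alone. Igha was seen in 0 of the same treated cells and in 1.04% of vehicle cells.

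The next question was whether the change differed from that of B cells in the spleen or blood of the same cohort, taken by the same gate (1586 spleen and 1288 blood cells). In spleen B cells 247 genes rose (2.78%) and 210 fell (2.37%) of 8878 tested, and in blood 24 rose (0.329%) and 33 fell (0.452%) of 7300. The change in ascites differed from that in spleen for 51 genes above 0 (0.646%) and 183 below 0 (2.32%) of 7892. Against blood it differed for 24 above 0 (0.313%) and 40 below 0 (0.521%) of 7673. Of the 140 genes lower in treated ascites B cells, 63 had a difference below 0 against spleen and 36 against blood. Of the 125 higher genes, 14 had a difference above 0 against each. These genes were chosen by the same ascites counts that enter the difference, which favours such an overlap. The overlaps are therefore a description.

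Ascites was a separate droplet library, so a difference between tissues in the treatment effect compares changes within libraries. Spleen B cells carried neutrophil transcripts unequally, at a sum of 465 to 7800 CPM in treated and 15593 to 26666 CPM in vehicle mice. Without spleen cells rich in S100a8 and S100a9 the difference was above 0 for 26 genes (0.33%) and below 0 for 132 (1.67%). With the mouse as a block, equal numbers being taken as the same animal, 193 genes passed against spleen, and 20 of the 27 named genes that differed stayed past the threshold. Without treated mouse 3 the count against spleen was 125, and without treated mouse 2 it was 155, in place of 234.

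The fall of Btla in ascites differed from its change in both other tissues, where it did not pass the test. It had 100.3, 90.6 and 87.9 CPM in treated spleens 2 to 4, against 75.1, 106 and 90.1 CPM in vehicle spleens 1 to 3. In blood it had 157, 170.1 and 185.5 CPM in treated mice, against 173, 149.5 and 181 CPM in vehicle mice. The log2 change in ascites was lower by 1.56 than in spleen (difference -1.56 ± 0.22, adjusted p = 0.000112) and by a like amount than in blood (-1.52 ± 0.20, adjusted p = 1.48e-06).

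Crem rose in spleen B cells too. It had 46.4, 41.3 and 26.1 CPM in treated spleens, against 14.9, 12.6 and 19.6 CPM in vehicle spleens (log2 ratio 1.27 ± 0.24, adjusted p = 0.00647). In blood it had 17.3, 20.7 and 21.8 CPM in treated mice, against 14.4, 16.4 and 13.4 CPM in vehicle mice, and did not pass the test there. Its change in ascites exceeded that in blood (difference 1.92 ± 0.41, adjusted p = 0.00759). The difference from spleen was 1.08 ± 0.46 and was not past the threshold (adjusted p = 0.318). Stat4 rose in every tissue, with log2 ratios of 1.5 in ascites, 1.31 in spleen and 0.89 in blood, and its difference was not past the threshold against either.

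Zfp36l2 moved in opposite directions in ascites and blood. Blood B cells had 512.5, 571 and 534 CPM in treated mice, against 383, 399 and 284 CPM in vehicle mice, a rise of 0.60 ± 0.10 (adjusted p = 0.000305). Spleen B cells had 286, 276 and 269.6 CPM in treated mice, against 419.5, 394 and 362.5 CPM in vehicle mice, a fall (-0.50 ± 0.10, adjusted p = 0.00693). The difference between ascites and blood was -1.66 ± 0.15 (adjusted p = 1.36e-07). Against spleen it was -0.58 ± 0.13 (adjusted p = 0.0076), and 0.0521 with the mouse as a block.

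Identity and receptor signalling genes were among the differences from spleen. Of 21 identity genes the change in ascites was below that in spleen for 8 and above it for 1, with a median difference of -0.60 against -0.03 over all 7892 genes. Of 29 receptor signalling genes 8 were below and 0 above (median -0.39), and of 13 class II genes 5 below and 0 above (median -0.52). Without neutrophil-rich spleen cells the counts below were 7 for identity, 6 for receptor signalling and 2 for class II, with medians of -0.54, -0.35 and -0.46. Pax5, which did not pass in ascites alone, differed from spleen (difference -0.73, adjusted p = 0.00647), where its log2 ratio was 0.42. Against blood the counts were 2 below and 1 above for identity, 1 and 0 for receptor signalling, and 0 and 0 for class II. Ciita, Ptpn6 and Bcl11a fell in blood B cells as well (log2 ratios -0.71, -0.61 and -0.64, adjusted p = 0.00012, 0.000116 and 6.3e-05). Type I interferon genes rose in spleen for 13 of 19 tested, and 0 of 16 differed between ascites and spleen.

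**Figure D5:**
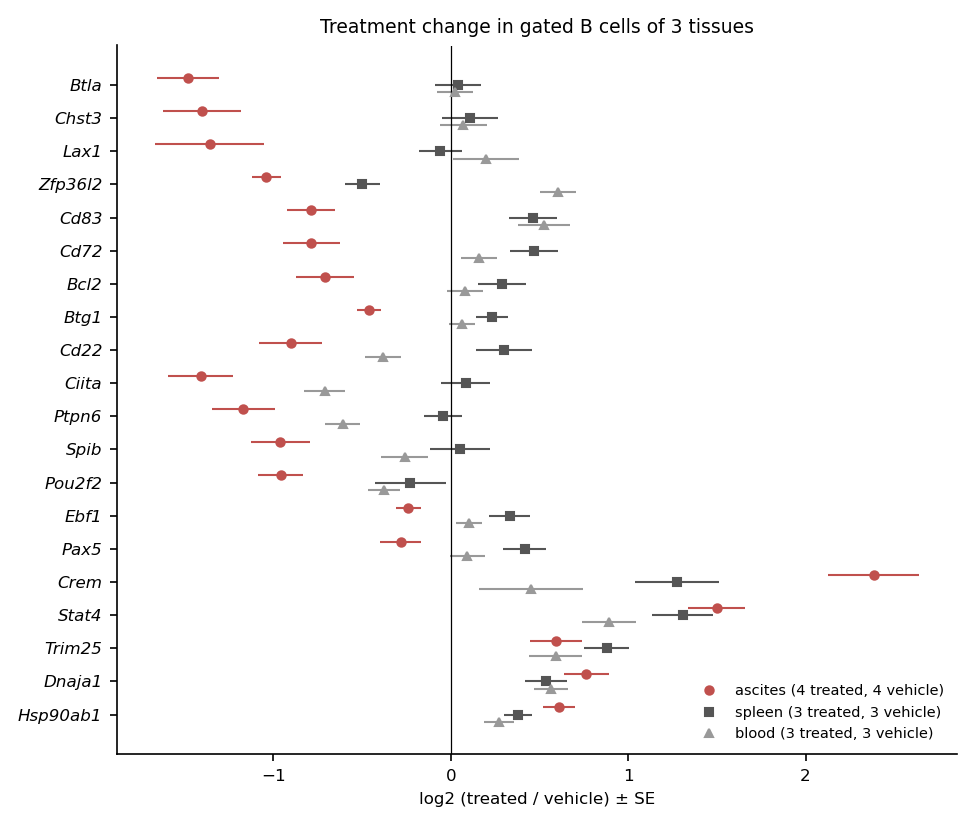
Log2 ratio of treated over vehicle (± SE) of 20 genes in gated B cells of ascites (circles, 4 mice per arm), spleen (squares) and blood (triangles, 3 mice per arm each). Btla lies at -1.48 in ascites and near 0 elsewhere, Zfp36l2 lies below 0 in ascites and spleen and above 0 in blood, and Stat4 lies above 0 in all 3 tissues.

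In vehicle mice, ascites B cells differed widely from spleen B cells, with 2037 genes higher (25.5%) and 2150 lower (27%) of 7975 tested. Against blood, 1703 were higher (22.9%) and 1759 lower (23.6%) of 7451. Tissue and droplet library cannot be told apart here. The largest differences were those of transcripts of other cells. Cxcl1, Stab1, Dab2, Pf4 and Arg1, of which several are macrophage genes, led in ascites over spleen, and the neutrophil granule genes Camp, Ngp, Ltf, Lcn2 and S100a9 led in spleen.

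CREB and CRTC targets were higher in ascites B cells of vehicle mice. Of 18 tested, 14 were above spleen and 0 below (median log2 ratio 1.43), and 16 of 17 were above blood. Some other lists shifted the same way. Early activation genes, which share members with the targets, had 18 of 27 above spleen and 2 below, and 20 of 26 above blood. The SIK, CRTC and class IIa HDAC axis had 14 of 17 above spleen and 0 below. Glucocorticoid and quiescence genes had 11 of 16 above and 4 below, and macrophage markers 4 of 6 above and 0 below. Heat shock genes went the other way, with 2 of 15 above spleen and 9 below. Per1 averaged 203 ± 15.0 CPM in ascites and 22.8 ± 3.23 CPM in spleen (SD, n = 4 and 3, log2 ratio 3.13), and Nr4a1 235 ± 51.8 and 50.7 ± 3.51 CPM (2.22). Crem and Pde4d did not differ between ascites and spleen by the test (0.35 and -0.48). Of the marginal zone list 6 of 6 tested genes were lower in ascites than in spleen, among them Cr2 (72.5 ± 5.56 against 262 ± 62.3 CPM, log2 ratio -1.86) and Cd9 (27.0 ± 8.18 against 133 ± 15.3 CPM, -2.28). Pax5 was higher in ascites than in spleen (1.18 ± 0.12), while Ebf1 did not differ by the test (0.11 ± 0.10). These 8 genes, Per1, Nr4a1, Crem, Pde4d, Cr2, Cd9, Pax5 and Ebf1, were chosen after their values were seen.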

How the data were processed

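Live CD45-positive, MHC class I-positive cells of ascites, spleen and blood were measured by 10x Genomics 3' sequencing with hashtag antibodies. The deposited matrices hold UMI counts per gene and barcode, and the authors made them with Cell Ranger 6.1.1 on mm10, per the submitters' processing notes. The deposited notes on the hashtags name the mouse, arm (control or treated) and tissue. A barcode was kept if it had 200 or more genes, 500 or more UMIs and no more than 10% mitochondrial UMIs. This held for 11112 of 13688 in ascites (134034611 UMIs) and 11513 of 14792 in spleen and blood (92064806 UMIs). Cells whose top hashtag held at least 80% of at least 20 hashtag UMIs were assigned, 6419 and 6741. That rule removes doublets between mice; doublets within a mouse were not called, and the Cd3 and C1q limits of the gate stand in for this.

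Counts were summed per mouse over gated cells, for mice with at least 20 such cells, and tested with edgeR 4.0.16 in R 4.3.3 (TMM, filterByExpr, two-sided robust quasi-likelihood F test, Benjamini-Hochberg threshold 0.05). CPM of tested genes are scaled by the TMM library size over those genes, and marker sums and levels in other cells by all UMIs. Differences between tissues were an interaction term without a block, and DESeq2 1.42.0 was an alternative. In simulated counts the ascites fit recovered 82.1% of 2-fold and 100% of 4-fold changes over 5309 genes. The interaction fit recovered 41.1% and 71.7% over 7573 genes. False calls were 4.49% of the calls in the ascites fit and 5.98% in the interaction fit. The simulated spread followed the trend over expression level, so genes with a wider spread between mice are not covered. Per-mouse values were compared by exact two-sided permutation over mice. The p-values cover the spread between these mice, which shared 1 droplet library per tissue set.

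The members and the gene lists were chosen with earlier results of these data known. Named genes are, among those past the threshold with a mean log2 CPM of at least 4 and no overlap, the 10 largest changes in each direction, up to 4 called members per list by p, and 16 genes of the kinase axis and B cell identity. For tissues they are the 5 largest in each direction. Other list members were chosen after their values were seen. Genes of the gate are described only. Some genes that the rule named are not reported here. Of the 78 named genes 59 matched a RefSeq promoter (GRCm38.p6). Of the 30 lists, proliferation, atypical, B-1, marginal zone, plasma cell, germinal centre, macrophage, neutrophil and erythroid genes had 0 called members, and T, NK, dendritic and tumour markers had 0 tested.

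The mouse numbers of the arms do not pair animals. Correlations of the deviations of same-numbered treated and vehicle mice were 0.0503, -0.0188, -0.00186 and 0.0437.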

Additional observations from a re-analysis of the deposited data

Results flagged for a closer look

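Of 196 groups of 4 mice that were looked at, 10 had a mouse that stood apart from the other 3, where chance flags about 1 in 20. Vehicle mouse 4 stood high for the B cell share (24.02%), Chst3 (116.8 CPM), H2-K1 (1173 CPM) and Klf3 (80.98 CPM). Treated mouse 4 stood low for Ciita (50.09 CPM) and high for the share of B cells with Ighg3 (0.7143%). Treated mouse 2 stood low for Creb1 (58.59 CPM) and high for the share of B cells with Cd86 (21.95%). Vehicle mouse 1 stood high for the shares of B cells with Mki67 (3.226%) and Ighg2c (0.8065%). The Ighg2c and Ighg3 shares rest on single cells.

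For 27 named genes the treated over vehicle change in ascites B cells differed from that in spleen B cells by edgeR's interaction test, and 26 of them also differed once neutrophil-rich spleen cells were left out, all but Tnfrsf13b. The log2 difference was below 0 for Cd200 (-1.589), Btla (-1.56), Cd274 (-1.551), Chst3 (-1.55), Ciita (-1.528), Sema4d (-1.398), Lax1 (-1.336), Cd83 (-1.288), Cd72 (-1.286), Cd22 (-1.238), Ptpn6 (-1.156), Vpreb3 (-1.073), Spib (-1.044), Bcl2 (-1.033), Tnfrsf13b (-0.9313), Nr4a1 (-0.884), Bcl11a (-0.8349), Foxo1 (-0.8088), Pax5 (-0.7348), Btg1 (-0.7252), Ighd (-0.6185), Ebf1 (-0.6031) and Zfp36l2 (-0.5754). It was above 0 for Dusp1 (0.7593), Pim1 (0.9609), Bcl2a1d (1.506) and Il7r (2.07). With the mouse as a block, Lax1, Tnfrsf13b, Bcl11a, Foxo1, Ighd, Zfp36l2 and Bcl2a1d were not past the threshold, with adjusted p of 0.0601, 0.103, 0.101, 0.0553, 0.0951, 0.0521 and 0.166.

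The change differed from that in blood B cells for 20 named genes. The log2 difference was below 0 for Fut8 (-1.787), Zfp36l2 (-1.662), Lax1 (-1.567), Btla (-1.522), Chst3 (-1.502), Cd83 (-1.331), Per1 (-1.193), Cxcr4 (-1.015), Irf4 (-0.9725), Cd72 (-0.958), Sik1 (-0.8258), Irf8 (-0.8183), Bcl2 (-0.8042), Cd24a (-0.7929) and Btg1 (-0.5409). It was above 0 for Ifngr1 (0.8425), Klf3 (0.8585), Stat6 (1.207), Tnfrsf1b (1.899) and Crem (1.918). With the mouse as a block 15 stayed past the threshold, and Fut8, Lax1, Irf4, Cd24a and Ifngr1 did not (adjusted p = 0.096, 0.0532, 0.0532, 0.149 and 0.234). Of the 20, 8 also differed from spleen. Of the 78 named genes 68 were called on the same ascites counts. The counts of named genes that differed from spleen or blood are favoured by that choice.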

How the results depend on the processing

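The 265 genes called of 5530 tested in ascites became 140 of 5530 with the DESeq2 Wald test and 34 of 2990 at no more than 5% mitochondrial UMIs. They became 156 of 3464 in cells with 0 UMIs of 5 other B-1 transcripts and 128 of 3131 after thinning. Without the Bhlhe41 and Zbtb32 condition they were 489 of 6132. When 1 mouse was left out they were 173 of 6063 (without treated mouse 3) to 318 of 5408 (without vehicle mouse 4). The 234 tissue differences of 7892 tested became 354 of 17512 with no low-count filter. Against blood they were 64 of 7673, and 60 of 7506 with the replicate block. Without 1 mouse they were 125 of 8244 (without treated mouse 3) to 283 of 8196 (without vehicle mouse 1). The share difference of -4.68 points was past the threshold at no more than 5% mitochondrial UMIs (-4.43) and among B, T and NK cells (-21.9). The cause was not tested.

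With mouse number as a replicate block, which pairs no animals within ascites, 327 genes were called. With the mouse as a replicate block 193 differed from spleen and 3521 genes separated ascites from spleen in vehicle mice, in place of 4187.

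Of 68 called named genes 20 were never lost in the settings that tested them, 36 were lost under 1 to 3 settings and 12 under more. Among the named genes only uncalled ones changed sign, and of the 265 called genes 1 did, at no more than 5% mitochondrial UMIs. Sik3 (0.10) turned to -0.2561 at the mitochondrial limit, -0.03013 with the stricter gate, -0.1573 in Ighd-positive cells, -0.01028 without the Bhlhe41 and Zbtb32 condition, -0.0913 without the deepest cells, -0.03516 without macrophage-rich cells and -0.06753 to 0.2374 without 1 mouse. Nr4a2 (-0.22) turned to 0.03263 in Ighd-positive cells and 0.1934 without that condition, and Il10 (0.06) to -0.04047 without it and -0.08926 to 0.1961 without 1 mouse. These are log2 ratios.

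A test restricted to cells with 0 UMIs of other cells' transcripts was not run, since 2 mice kept at least 20 such cells. Depth limits the low genes: 15 of 26 interferon genes were not tested.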
